A study of Saccharomyces cerevisiae BY4741 with 5 samples.

Results

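Hsp90 and its co-chaperones were followed here through the RNA that cross-links to the yeast RNA-binding protein Ssd1. The group held 10 of the 5090 counted transcripts, taken by locus name: HSP82 (YPL240C), HSC82 (YMR186W), STI1 (YOR027W), AHA1 (YDR214W), HCH1 (YNL281W), CPR6 (YLR216C), SBA1 (YKL117W), CDC37 (YDR168W), YDJ1 (YNL064C) and SIS1 (YNL007C). All 10 had mapped transcript ends and all 10 passed the count minimum in every comparison. The choice went by locus name and not by a measured value, but earlier results of these data were known when it was made.

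The samples came from Saccharomyces cerevisiae strain BY4741 and were studied by CRAC, in which RNA cross-linked to a tagged protein by ultraviolet light is purified with it and sequenced. Ssd1-HTP cells carried the tag (polyhistidine, a TEV protease site and protein A) at the C-terminus of Ssd1, and there were 2 independent clones, numbered 3 and 4. Each clone was sampled after 16 min at 42°C and in exponential growth at 30°C, and 1 library came from cells without the tag at 30°C, with no control at 42°C. Totals were 169549 and 413502 counts at 42°C for clones 3 and 4, 176962 and 111824 at 30°C, and 3921 in the untagged control. LEU2, absent from BY4741, had 0 counts in every library, and MET17, also deleted in it, had 1 count in all, while MFA1, a gene of its mating type, had 31 to 131 counts in the Ssd1-HTP libraries and 0 in the control. Counts follow both how much of a transcript a cell holds and how much of it Ssd1 binds, and more RNA and more binding per RNA cannot be told apart in these libraries. All values are shares of a library.

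Hsp90 is an ATP-driven chaperone dimer that completes the folding of client proteins such as kinases and receptors. Yeast has a pair of nearly identical Hsp90 genes: HSC82 is expressed constitutively, and HSP82 is strongly induced by heat through the transcription factor Hsf1. J-domain proteins pass clients to Hsp70, Sti1 bridges Hsp70 to Hsp90, and other co-chaperones set the pace of the Hsp90 ATPase cycle or bring particular clients to it.

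Of the 10 transcripts, 7 were called higher in Ssd1 counts at 42°C than at 30°C: HSP82, HSC82, STI1, CPR6, SIS1, AHA1 and YDJ1. Among all 2837 tested transcripts, 108 were called higher (3.81%), in the quasi-likelihood test of edgeR, with p-values adjusted by Benjamini-Hochberg and a threshold of 0.05. HCH1, SBA1 and CDC37 did not pass. None of the 10 was called lower by edgeR or by DESeq2, against 98 (3.45%) and 165 of all 2837 tested transcripts. At an unadjusted p under 0.05 (edgeR) none was lower, against 289 of 2837. With shares this small, 0 of 10 says little about the members. The median log2 fold change of the 10 was 2.89, against 0.13 over all tested transcripts. Leaving out the 30°C library of clone 4 ended the calls of HSC82, AHA1 and YDJ1 (adjusted p = 0.0536, 0.0591 and 0.110), and 4 of the 10 were then called. In the same 7 transcripts both 42°C libraries lay above both 30°C libraries in CPM (counts scaled to a common library total), as they did in 27.2% of all tested transcripts, and in the other 3 the groups overlapped.

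**Figure D1:**
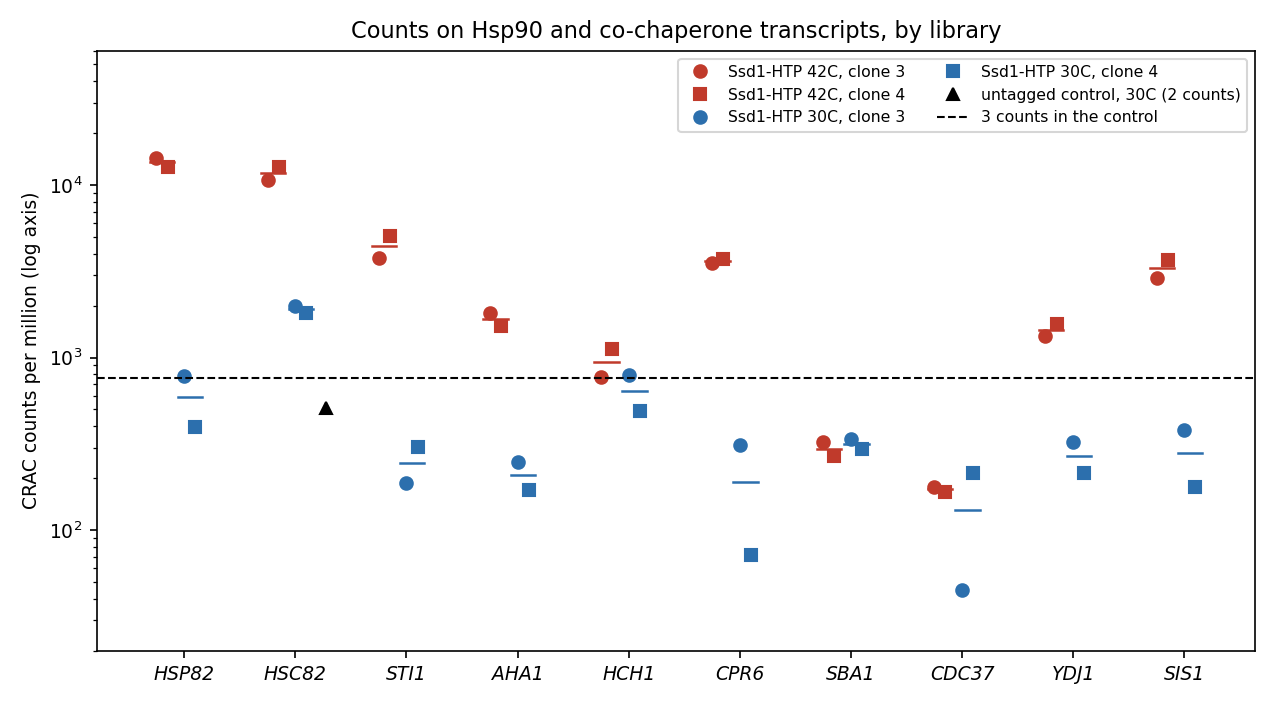
CPM (log axis) on each of the 10 transcripts. Red points are the 42°C libraries, blue points the 30°C libraries, circles clone 3 and squares clone 4, with short lines at the means of 2 libraries. The triangle is the control's 2 counts on HSC82, and the dashed line the 765 CPM that 3 control counts amount to. For 7 transcripts the red points lie above the blue ones, as in 27.2% of all tested transcripts, while they overlap for HCH1, SBA1 and CDC37.

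HSP82, the heat-inducible Hsp90, lies on chromosome XVI (96407 to 98681, minus strand, sacCer3 coordinates of the authors' table). It had 2442 and 5264 counts at 42°C in clones 3 and 4, against 139 and 44 at 30°C, and 0 in the control. Scaled to a common library total of 1000000 (CPM) that was 14403 and 12730 CPM at 42°C and 785 and 393 CPM at 30°C. The groups were far apart, and in ratio the 42°C libraries lay closer to each other than the 30°C libraries did. The log2 fold change was 4.59 (SE 0.45, adjusted p = 0.00194, edgeR), or 24.1-fold. By clone the ratio of CPM was 18.3 in clone 3 and 32.4 in clone 4, and without the 30°C library of clone 3 the log2 fold change was 5.18. By count, HSP82 ranked 5 and 7 of 5090 at 42°C, against 159 and 367 at 30°C.

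HSC82, the constitutive Hsp90, lies on chromosome XIII (632328 to 634563, plus strand). It had 1807 and 5262 counts at 42°C, against 352 and 203 at 30°C, and 2 in the control. The corresponding levels were 10658 and 12726 CPM at 42°C and 1989 and 1815 CPM at 30°C. Again the groups did not overlap, and the 30°C clones lay close together. Its log2 fold change was 2.72 (SE 0.34, adjusted p = 0.0045, edgeR), or 6.58-fold. HSC82 was already among the most counted transcripts at 30°C, at ranks 46 and 50, and reached ranks 9 and 8 at 42°C.

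The contrast between the Hsp90 pair can be read inside each library, without any library size. At 42°C HSP82 took 57.5% of the counts on the pair in clone 3 (95% Clopper-Pearson interval 56.0 to 59.0%, of 4249 counts) and 50.0% in clone 4 (49.0 to 51.0%, of 10526). At 30°C it took 28.3% in clone 3 (24.4 to 32.5%, of 491 counts) and 17.8% in clone 4 (13.3 to 23.2%, of 247). HSC82 was thus the more counted Hsp90 transcript in both 30°C libraries, and HSP82 matched or passed it in both 42°C libraries. These binomial intervals cover counting error only, and at each temperature those of the clones did not overlap.

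As a log2 ratio of HSP82 to HSC82 (0.5 added to each count), the mean was 0.22 ± 0.31 at 42°C and -1.77 ± 0.61 at 30°C (SD, n = 2 each), a difference of 1.98 or 3.95-fold. The shift was 1.77 in clone 3 and 2.19 in clone 4. Both 42°C values lay above both 30°C values, and the exact two-sided permutation test gave p = 0.333, the smallest that 2 against 2 allows. The genes encode nearly identical proteins, and reads from stretches they share could have been assigned to either. No source used here says how such reads were treated, so a part of each gene's counts may belong to the other.

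**Figure D2:**
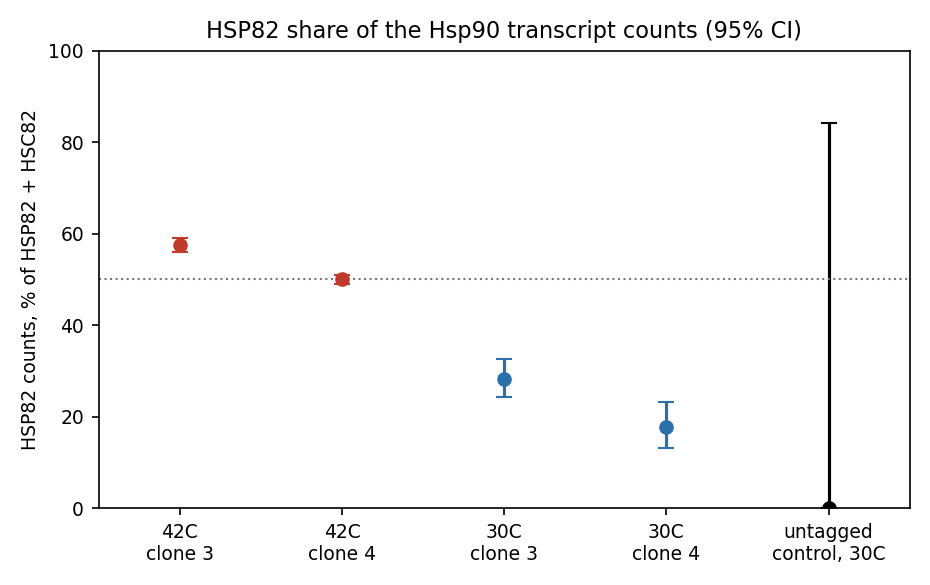
HSP82 counts as a percentage of HSP82 plus HSC82 counts in each library. Points are libraries, bars are 95% Clopper-Pearson intervals and the dotted line marks equal counts. The 42°C points stand at 57.5% and 50.0%, above the 30°C points at 28.3% and 17.8%. The control has 0 of 2 counts on HSP82, so its interval spans most of the axis.

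STI1, whose product (the yeast counterpart of Hop) holds Hsp70 and Hsp90 together, had the next largest fold change after HSP82 among the 10. CPR6 was close behind (log2 fold change 4.27), and the order of STI1 and CPR6 turned in some alternatives. The STI1 transcript (chromosome XV, 380956 to 382931, plus strand) had 638 and 2087 counts at 42°C, against 33 and 34 at 30°C, and 0 in the control. The 42°C libraries stood far above those at 30°C (3763 and 5047 CPM, against 186 and 304 CPM). Its log2 fold change was 4.29 (SE 0.48, adjusted p = 0.00318, edgeR). On the log2 scale of normalised counts the clones differed little, at 4.30 in clone 3 and 4.27 in clone 4. By clone the ratio of CPM was 20.2 and 16.6, and the fit spanned 3.94 to 4.66 without one library at a time. The STI1 interval shares 39 nt on the same strand with that of BUB3, which had at most 14 counts in any library.

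AHA1 and HCH1 encode related activators of the Hsp90 ATPase, and of this pair AHA1 passed the test and HCH1 did not; the difference between them was not tested. AHA1 (chromosome IV, 892759 to 894024, plus strand) had 307 and 628 counts at 42°C, against 44 and 19 at 30°C. In CPM these were 1811 and 1519 at 42°C, against 249 and 170 at 30°C, with no overlap. Its log2 fold change was 3.05 (SE 0.48, adjusted p = 0.0103, edgeR).

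HCH1 (chromosome XIV, 108411 to 109088, plus strand) had 130 and 464 counts at 42°C, against 140 and 55 at 30°C. The levels overlapped, with 767 and 1122 CPM at 42°C and 791 and 492 CPM at 30°C: clone 3 had nearly the same level at both temperatures, and clone 4 was higher at 42°C. The log2 fold change was 0.66 (SE 0.50, 95% interval -0.50 to 1.82, adjusted p = 0.577, edgeR). As a ratio the interval runs from 0.709-fold to 3.52-fold. The HCH1 interval shares 99 nt on the opposite strand with that of ERG24. ERG24 had 5 and 1 counts at 42°C and 24 and 8 at 30°C, and without a statement on strand in counting, reads in the shared stretch cannot be assigned.

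Set against each other within a library, AHA1 took 70.3% and 57.5% of the counts on AHA1 and HCH1 at 42°C, against 23.9% and 25.7% at 30°C. HCH1 held most of the counts of this pair in both 30°C libraries and AHA1 in both 42°C libraries. Per nucleotide the picture at 42°C is less one-sided, since HCH1 is the shorter: AHA1 over HCH1 in TPM (counts per length, scaled to 1000000 in each library) was 1.26 and 0.725 at 42°C, against 0.168 and 0.185 at 30°C. The comparison of this pair was chosen after the values were seen.

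CPR6, SBA1 and CDC37 encode co-chaperones with separate tasks: Cpr6 is a peptidyl-prolyl isomerase of the cyclophilin family, Sba1 is the yeast p23 that slows ATP hydrolysis in the closed Hsp90, and Cdc37 brings protein kinases. CPR6 (chromosome XII, 571984 to 573242, minus strand) had 596 and 1538 counts at 42°C, against 55 and 8 at 30°C. The 42°C libraries were alike at 3515 and 3719 CPM, while the 30°C libraries differed from each other at 311 and 71.5 CPM. The log2 fold change was 4.27 (SE 0.67, adjusted p = 0.0098, edgeR). Because of the spread at 30°C, it was 3.46 in clone 3 and 5.91 in clone 4, and the fit gave 5.73 without the 30°C library of clone 3 and 3.63 without that of clone 4.

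SBA1 (chromosome XI, 220293 to 221193, plus strand) had 55 and 111 counts at 42°C, against 60 and 33 at 30°C. Its levels were 324 and 268 CPM at 42°C and 339 and 295 CPM at 30°C, and these ranges overlapped. The log2 fold change was -0.02 (SE 0.56, 95% interval -1.31 to 1.27, adjusted p = 0.994, edgeR), with a sign that turned under 3 of 10 alternatives. As a ratio the interval runs from 0.402-fold to 2.42-fold.

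CDC37 (chromosome IV, 790288 to 791925, plus strand) had the fewest counts of the 10 summed over the libraries, with 30 and 69 counts at 42°C and 8 and 24 at 30°C. The 42°C libraries were close, at 177 and 167 CPM, and fell between the 30°C libraries, at 45.2 and 215 CPM. Its log2 fold change was 0.53 (SE 0.93, 95% interval -1.61 to 2.67, adjusted p = 0.848, edgeR). As a ratio the interval runs from 0.329-fold to 6.35-fold, so that a change of that size was not detectable with these counts.

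YDJ1 and SIS1 encode the main J-domain partners of cytosolic Hsp70, which supply Hsp90 with clients; Sis1 is essential and also holds down Hsf1 activity. YDJ1 (chromosome XIV, 505746 to 507290, minus strand) had 225 and 647 counts at 42°C, against 57 and 24 at 30°C. That was 1327 and 1565 CPM at 42°C and 322 and 215 CPM at 30°C, without overlap, and the log2 fold change was 2.51 (SE 0.49, adjusted p = 0.0222, edgeR). This was the smallest change among the 7 called transcripts.

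SIS1 (chromosome XIV, 618455 to 619706, minus strand) had 491 and 1520 counts at 42°C, against 67 and 20 at 30°C. The levels were 2896 and 3676 CPM at 42°C and 379 and 179 CPM at 30°C, again without overlap. Its log2 fold change was 3.63 (SE 0.52, adjusted p = 0.00701, edgeR), and 4.28 without the 30°C library of clone 3. By clone the ratio of CPM was 7.65 in clone 3 and 20.6 in clone 4. Of the counts on the J-domain pair, SIS1 took 68.6% and 70.1% at 42°C, against 54.0% and 45.5% at 30°C. This within-library comparison was also made after the values were seen.

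**Figure D3:**
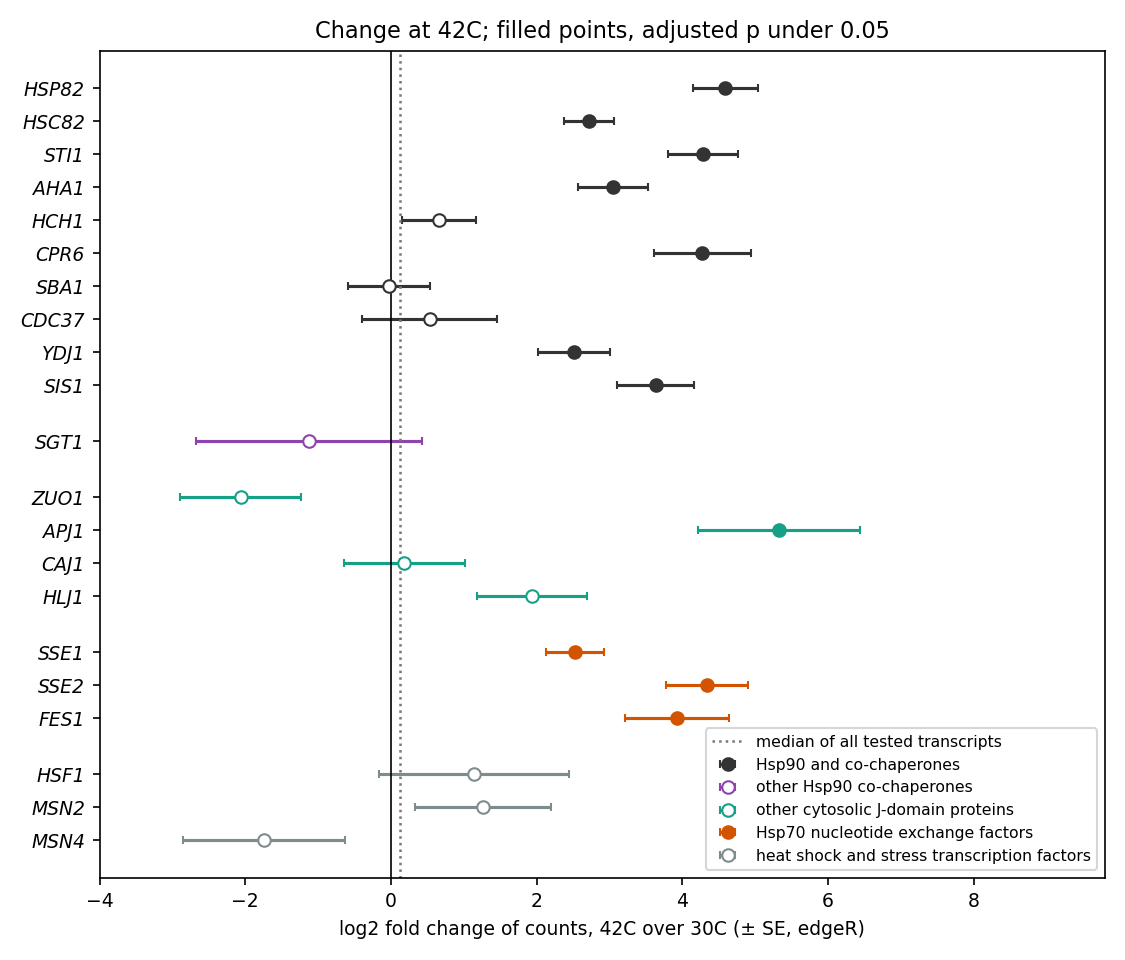
Log2 fold change of counts at 42°C over 30°C (± SE, edgeR) for the 10 transcripts and for the tested transcripts of 4 related lists, which are told apart by colour. Filled points have an adjusted p under 0.05, and the dotted line is the median of all tested transcripts, 0.13. The called members lie between 2.51 and 4.59.

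Added together, the 10 transcripts took 3.96% and 4.25% of all counts at 42°C, against 0.540% and 0.415% at 30°C, and 0.0510% (2 counts) in the control. The mean was 4.11 ± 0.20% at 42°C and 0.477 ± 0.088% at 30°C (SD, n = 2 each), 8.61-fold higher at 42°C. The Hsp90 pair accounted for 63.2% and 59.8% of the group's counts at 42°C and 51.4% and 53.2% at 30°C. The co-chaperones without Hsp90 took 1.46% and 1.71% of each library at 42°C, against 0.262% and 0.194% at 30°C. The larger share at 42°C was therefore present in the sum of each class, although HCH1, SBA1 and CDC37 among the co-chaperones overlapped between temperatures.

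Levels of different genes were compared per length, in TPM. At 42°C the order was HSP82 (7096 ± 967 TPM, SD, n = 2), HSC82 (6189 ± 470), CPR6 (3408 ± 32.4), SIS1 (3103 ± 369), STI1 (2634 ± 415), HCH1 (1643 ± 358), AHA1 (1566 ± 271), YDJ1 (1108 ± 74.2), SBA1 (392 ± 71.4) and CDC37 (124.7 ± 11.3). The ranges of neighbours overlapped for HSP82 and HSC82, for SIS1 and STI1, and for HCH1 and AHA1. The other neighbours did not overlap, although with 2 libraries each that is a weak statement.

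At 30°C HCH1 and HSC82 led, at 1141 ± 370 and 1027 ± 59.7 TPM (SD, n = 2), with overlapping ranges. SBA1 followed at 425 ± 38.9 TPM and HSP82 after it at 312 ± 145 TPM, and from SBA1 down to CDC37 (96.1 ± 88.9 TPM) the ranges of all neighbours overlapped. HCH1 and SBA1, which did not pass the test between temperatures, thus stood in the upper ranks at 30°C and in the lower ones at 42°C.

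**Figure D4:**
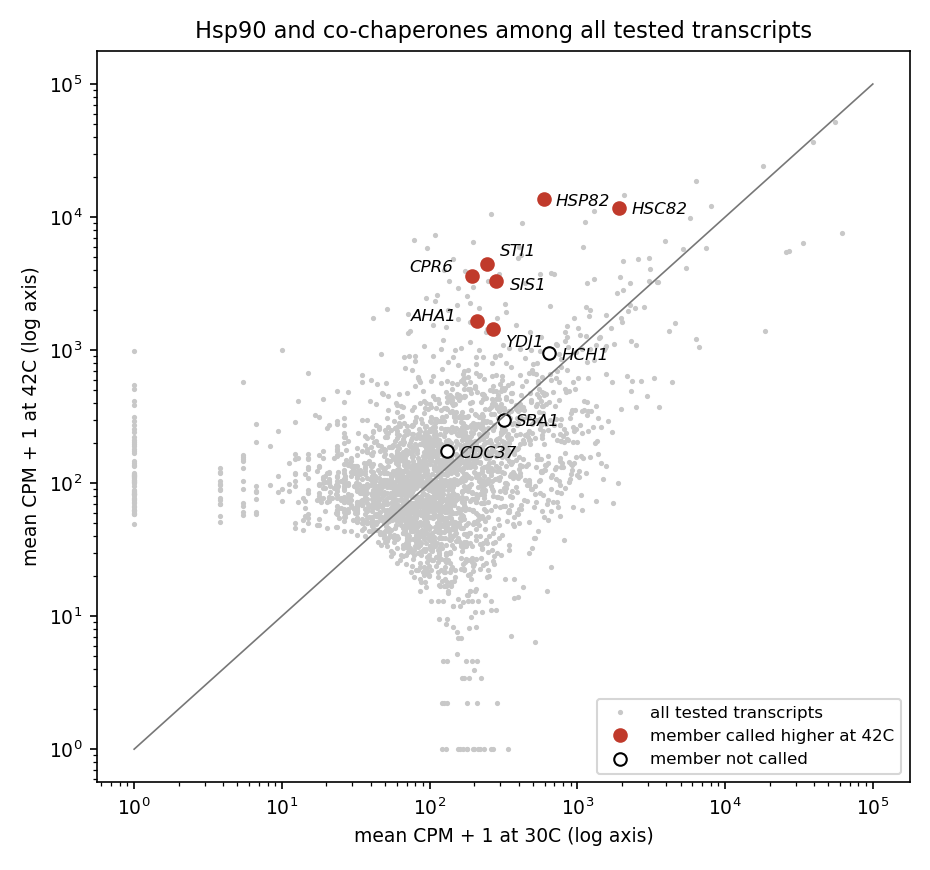
Mean CPM plus 1 at 42°C against that at 30°C, both on log axes, for all 2837 tested transcripts (grey). Members called higher at 42°C are red, the other members open circles, and the line marks equal levels. HSP82 and HSC82 stand near the top, and SBA1 and CDC37 lie close to the line within the cloud.

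The untagged control asks how much of a transcript is recovered without tagged Ssd1. It had 2 counts on HSC82 and 0 on the other 9 transcripts. Since 0 counts allow up to 3, or 765 CPM in a library this shallow, only high levels could be told from background. At 42°C, 4 of the 10 passed edgeR's test against the control (HSP82, HSC82, STI1 and SIS1, adjusted p = 0.00819, 0.00833, 0.0214 and 0.0423), against 1.15% of 3046 tested transcripts called higher. The control is 1 library, so the spread in that test comes from the Ssd1-HTP libraries alone. TMM was kept as an alternative only, since on a control this shallow it rests on few transcripts. The log2 fold change of HSC82 was 4.52 with total counts and 7.44 with TMM. With TMM in place of total counts as library sizes, 8 of the 10 passed, all but SBA1 and CDC37, against 6.57% of all tested transcripts.

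Against the 3-count limit, HSP82 was at least 17.7-fold higher at 42°C than in the control. The bound was 5.76-fold for STI1, 4.73-fold for CPR6, 4.29-fold for SIS1, 2.18-fold for AHA1, 1.89-fold for YDJ1 and 1.23-fold for HCH1. These bounds are on means of 2 libraries, and HCH1 in clone 3, at 767 CPM, barely passed the limit of 765 CPM. HSC82 was 22.9-fold above its 2 control counts, with an exact 95% Poisson interval of 6.35 to 189. SBA1 and CDC37 were below the limit at 42°C. The control was grown at 30°C, so temperature and tag differ together in this comparison.

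At 30°C none of the 10 was called against the control by edgeR, where 0.887% of 2256 tested transcripts were called higher. At an unadjusted p under 0.05 there were 3 of the 10, against 3.59% of all tested transcripts, and DESeq2 called none. HSC82 had the smallest adjusted p (0.237), with a log2 fold change of 1.90 (SE 0.70), and its ratio of CPM to the control was 3.73 (exact 95% Poisson interval 1.03 to 30.8). The means of the other 9 were under 765 CPM at 30°C, so that no bound above 1 could be given. The limit of TMM on a shallow control applies here too, and it moved the log2 fold change of HSC82 to 4.23. With TMM, HSC82 and HSP82 passed, against 3.41% of all tested transcripts.

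The chaperone partners around these genes were read from 4 further lists. Of 6 other Hsp90 co-chaperones, 1 reached the count minimum (SGT1) and was not called by edgeR or DESeq2 and was over 0.05 without adjustment, and the other 5 had at most 18 counts in any library. Of 10 other cytosolic J-domain proteins, 4 were tested and 1 was called higher, with none called lower by edgeR or DESeq2. Among all 2837 tested transcripts edgeR called 3.81% higher and 3.45% lower, and DESeq2 called 165 lower. At an unadjusted p under 0.05 (edgeR), 2 were higher and 1 was lower, against 288 and 289 of all 2837 tested transcripts. The called transcript was APJ1, with 30 and 266 counts at 42°C against 1 and 2 at 30°C (log2 fold change 5.33, SE 1.11, adjusted p = 0.0273, edgeR). The call was lost without the 42°C library of clone 4, where the log2 fold change was 3.88 (adjusted p = 0.351), and without the 30°C library of clone 4, where it was 6.22 (adjusted p = 0.0683). It was 6.05 without the 42°C library of clone 3 and 4.60 without its 30°C library, so that the size of the APJ1 change depended on every library.

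Of 4 nucleotide exchange factors, which release ADP from Hsp70, 3 were tested. All 3 were called higher at 42°C, against 3.81% of all tested transcripts. SSE2 had 284 and 458 counts at 42°C, against 10 and 10 at 30°C, a log2 fold change of 4.34 (SE 0.56, adjusted p = 0.00471, edgeR). FES1 had 190 and 809 counts at 42°C, against 29 and 5 at 30°C (log2 fold change 3.93, SE 0.71, adjusted p = 0.0169, edgeR). The log2 fold change of FES1 was 5.19 without the 30°C library of clone 3 and 3.34 without the 42°C library of clone 4, and the ratio of CPM was 6.84 in clone 3 and 43.8 in clone 4. SSE1 had 596 and 1619 counts at 42°C, against 104 and 89 at 30°C (2.53, SE 0.40, adjusted p = 0.0106, edgeR). SSE1 also had 6 counts in the control, or 1530 CPM, which is above its 588 and 796 CPM in the Ssd1-HTP libraries at 30°C. Without the 30°C library of clone 4 the calls of FES1 and SSE1 were lost (adjusted p = 0.0600 and 0.0536).

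None of the 3 transcription factor transcripts (HSF1, MSN2 and MSN4) was called by edgeR or DESeq2, or was under 0.05 without adjustment. Their log2 fold changes spanned -1.74 to 1.27.

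The transcripts whose levels over the 4 Ssd1-HTP libraries were most like those of each Hsp90 gene were also sought among the other 2836 tested transcripts. Likeness was the root mean square difference of log2(CPM + 1), each centred on its mean over the 4 libraries, which share their depth with every transcript. Nearest to HSP82 were DDR2 (0.162), HSP26 (0.300), GRE3 (0.301), RTC3 (0.307) and SDS24 (0.338). HSP26 encodes a small heat shock protein and GRE3 an aldose reductase. Of the members, CPR6 was nearest to HSP82, at order 6, followed by SIS1 at order 13. HSP26 had 7 counts in the control, and the other 4 had 0.

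Nearest to HSC82 were GCY1 (0.0846), TPS1 (0.106), YGP1 (0.124), HSP60 (0.128) and PHM7 (0.162). TPS1 encodes trehalose-6-phosphate synthase and HSP60 the mitochondrial chaperonin. These transcripts were picked for levels that follow HSC82 in the same libraries, so a higher level at 42°C was fixed by the choice. GCY1 had at most 112 counts in a library. YDJ1 was at order 7 and AHA1 at order 22, while HSP82 itself was at order 479. YGP1 had 5 counts in the control and the other 4 had 0.

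**Figure D5:**
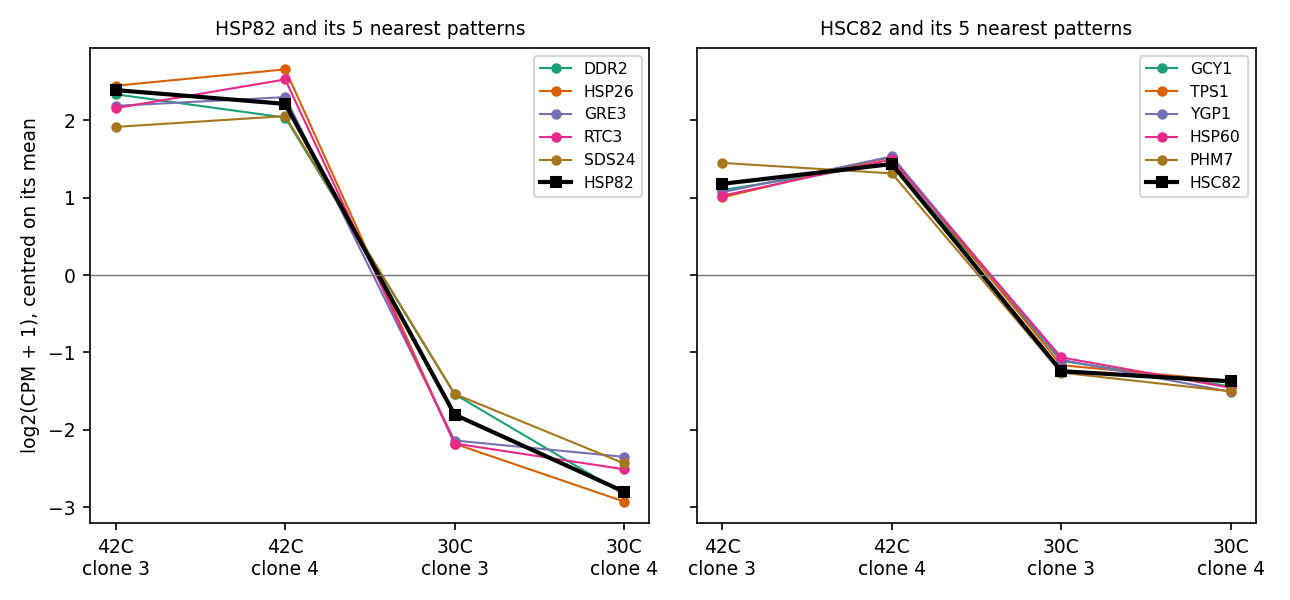
Log2(CPM + 1), centred on each transcript's mean over the 4 Ssd1-HTP libraries, for HSP82 (left) and HSC82 (right) in black and the 5 transcripts nearest to each in colour. Both groups lie above 0 at 42°C and below 0 at 30°C, with a wider gap for HSP82 than for HSC82. The coloured transcripts were picked for following HSP82 or HSC82 in these libraries, so their positions were fixed by the choice.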

How the data were processed

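Cells of 5 samples were cross-linked, and RNA bound to Ssd1-HTP was purified and sequenced. The authors trimmed and demultiplexed the reads, reduced PCR copies to 1 by the read and its random bases, aligned with Novoalign and deposited whole-number counts per transcript, not normalized. The submitters' processing notes name sacCer3, and no source used here says whether strand was used in counting. Of the 5090 intervals, 878 have default ends, none of them a member. Symbols came from the RefSeq table of assembly R64, which matched 5090 of 5090 loci.

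The temperatures were set against each other by the quasi-likelihood test of edgeR 4.0.16 (R 4.3.3, TMM, transcripts averaging 10 counts or more in the Ssd1-HTP libraries, Benjamini-Hochberg adjustment over all transcripts, threshold 0.05), and with the control in a fit of 3 groups with total counts as library sizes, in which the spread comes from the Ssd1-HTP libraries. DESeq2 1.42.0, other scalings and count minimums, a replicate block and leaving out each library were alternatives. The scripts were tested on simulated data. CPM and TPM were computed from the counts with Python 3.11.15, and intervals with scipy 1.17.1.

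The members and lists were chosen with earlier results of these data known. Named were all 10 members, called transcripts of the other lists (up to 4 a list) and the 5 patterns nearest to each Hsp90 gene. The replicate number is the clone, and the 30°C and 42°C samples of a clone were, per the labels, pooled during library preparation, so the number pairs the samples. The clone differences at 42°C and at 30°C correlated at r = -0.0212 across 2837 transcripts, which are not independent replicates. Sequences of the transcripts were not analysed here.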

Additional observations from a re-analysis of the deposited data

Results flagged for a closer look

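For 3 of the 10 transcripts the difference between temperatures, in TMM-normalised counts, had opposite signs in the clones. The difference between clones was not tested, since each clone has 1 library at each temperature.

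On the log2 scale of TMM-normalised counts, 42°C minus 30°C, CDC37 was 1.93 in clone 3 and -0.15 in clone 4. HCH1 was -0.085 in clone 3, near 0, and 1.40 in clone 4. SBA1 was -0.10 in clone 3 and 0.077 in clone 4, both near 0. Scaled by total counts, the ratio of CPM at 42°C to that at 30°C was 3.91 and 0.777 for CDC37, 0.969 and 2.28 for HCH1, and 0.957 and 0.910 for SBA1 in clones 3 and 4, so that SBA1 no longer divided the clones. CDC37 had 8 counts in the 30°C library of clone 3, the fewest of any member in that library.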

How the results depend on the processing

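Across 10 alternatives of the comparison of 42°C with 30°C, HSP82, STI1, CPR6 and SIS1 kept their calls and directions, and HSC82, AHA1 and YDJ1 in all but the one without the 30°C library of clone 4. HCH1, SBA1 and CDC37 were called in none; CDC37 was under the minimum of 1 setting, a mean count of at least 50. With the replicate block 150 transcripts were called higher and 144 lower, against 108 and 98 without it, and the paired fit changed no member's call. Calls higher numbered 174 of 4947 tested transcripts with no count minimum, and calls lower 165 of 2837 with DESeq2. Without one library at a time, 75 to 193 were called higher, 33 to 121 lower, and 4 to 7 members higher.

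Against the control, 42°C calls numbered 200 with TMM (8 members) and 73 with no count minimum (7 members), against 35 (4 members), and 61 to 68 without one 42°C library (5 to 6 members). The 30°C calls numbered 77 with TMM (2 members), 47 at a mean count of at least 50 and 33 with no minimum, against 20 (0 members). The cause was not tested.

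SBA1 changed sign to 0.11 with no count minimum, 0.022 without the 42°C library of clone 4 and 0.079 without the 30°C library of clone 3, and CDC37 to -0.24 without that 30°C library. Without one library at a time SBA1 spanned -0.12 to 0.079 and CDC37 -0.24 to 1.998. The HSP82 to HSC82 shift was 1.97 to 1.99 over pseudocounts, and 1.55 to 2.41 with each library left out in turn. The replicate block had to return the main value, 1.98, since pairing the clones leaves the difference of means unchanged. TPM had to return the value with no pseudocount, 1.99, since the lengths cancel between temperatures. Neither of these values tests the shift. The members' share was 2.94% at 42°C and 0.287% at 30°C without HSC82, and 2.73% of TPM at 42°C.

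With 2 libraries a temperature and 1 shallow control, small changes and weak binding were not detectable. The exact intervals on shares and control ratios reflect counting error alone.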
